A study of Mus musculus with 9 samples.

Results

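MyoD1 binding was examined at 10 genes that build, fold or cross-link collagen: Serpinh1, Col1a1, Col1a2, Col3a1, Col4a1, Col4a2, Col5a1, Col6a1, Col6a3 and Lox. They are 10 of 21924 protein-coding genes of the annotation. A peak was assigned to a gene when it overlapped the gene body or the 10 kb on either side of it, on mouse build mm10 with GENCODE M21 as annotation. Peaks of the 6 libraries that overlapped or touched were merged, which gave 104 regions at the 10 loci out of 58309 in all. The genes were chosen by measured values, since earlier results of these data were known and the tall site upstream of Serpinh1 was picked for its height. Values at that site are therefore descriptions and carry no test.

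The data are CUT and RUN peak lists from C2C12, a mouse skeletal muscle myoblast line. All 6 libraries came from cells in which the endogenous MyoD1 carries a 3xF-HaloTag and a further 3xF-Halo-MyoD1 copy can be induced with doxycycline (dox). An anti-Flag antibody directed a nuclease to the tagged protein, so the endogenous and the induced MyoD1 were read together. Cells entered differentiation medium without dox (no dox, 3 libraries) or with dox (+dox, 3 libraries) and were collected at 6 h. The titles call the replicates biological, without naming what separates them. The untagged wild-type libraries were not analysed here, and no value from cells lacking Flag is set beside these. A culture is an average over cells, and fewer bound cells cannot be told apart from less binding per cell.

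MyoD1 is a basic helix-loop-helix transcription factor of the muscle lineage that binds E-boxes, of which CAGCTG is the form it prefers. Collagen chains are made in the endoplasmic reticulum, where they are hydroxylated and wound into helical molecules with the help of chaperones, and are then secreted, trimmed, assembled and cross-linked. Fibrillar collagens give connective tissue its strength, and collagens of type IV and type VI form the basement membrane and the microfibrils that surround each muscle fibre.

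The lists held between 9389 and 53661 peaks, at depths between 2868000 and 8030000 alignments as read from the steps of the signal. Whether reads or fragments were counted is not given in the sources used here. The maxima were even numbers of alignments in 94.8 to 99.2% of the peaks of a list, so a count of alignments may stand for fewer fragments. Both extremes of depth were in the +dox group, with +dox 1 lowest and +dox 3 highest, and +dox 3 also had the longest list. Both libraries numbered 3 had a lower floor of total signal (354 and 336, in CPM summed over bases) than the other 4 (837 to 904). Of the 104 regions, 55 (52.9%) were called in +dox 3 and in no other library, against 59.2% of all regions, and their maxima held a median of 10 alignments. Results that rest on the libraries numbered 3 are given with and without them. Over the regions called in all 6 libraries, deviations of the 2 libraries numbered 1 correlated at 0.367, and of those numbered 3 at 0.493. Those numbered 2 gave -0.00972, and unlike numbers gave -0.491 to 0.162. Whether same-numbered libraries share a batch was not tested.

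Serpinh1 encodes the collagen-specific chaperone of the endoplasmic reticulum. It had 3, 4 and 5 peaks in no dox 1, 2 and 3 and 3, 7 and 6 peaks in +dox 1, 2 and 3. The groups overlapped. All 3 regions called in every library lay at or upstream of the gene, as the map of peaks around Serpinh1 shows. The tallest by far was intergenic, on chromosome 7 from 99359201 to 99362850, with its maximum between 6987 and 7087 bp upstream of the Serpinh1 start. The next gene start beyond it was that of Gdpd5, 21188 bp away.

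**Figure D1:**
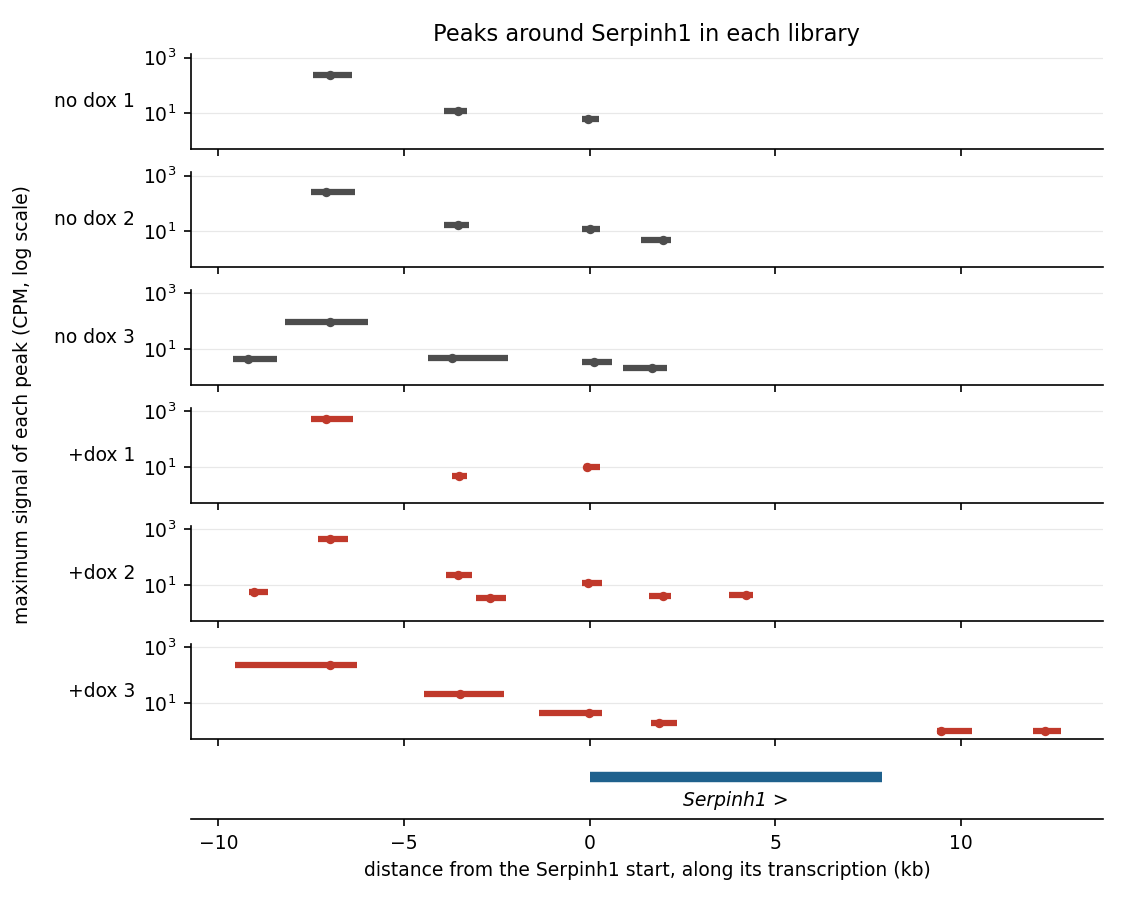
Peaks around Serpinh1 in each of the 6 libraries, by distance from the gene start along its transcription (kb). Horizontal lines span each peak, dots mark its maximum, and heights are maximum signals in CPM on a log axis. The site near -7 kb lies at 91.7 to 264 CPM in the no dox and 234 to 524 CPM in the +dox libraries, above each other peak shown.

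At this site the maximum signal was 242, 264 and 91.7 CPM in no dox 1, 2 and 3, and 524, 465 and 234 CPM in +dox 1, 2 and 3. The value in +dox 3 was below those of no dox 1 and 2, so the groups overlapped. Within each replicate number the +dox value was the higher. Means were 199 ± 93.9 CPM without dox and 408 ± 154 CPM with dox (SD, n = 3 each), and the log2 difference was 1.09, larger than the SD of log2 values in either group (0.85 and 0.63). Without no dox 3 alone the log2 difference was 0.61, and without both libraries numbered 3 it was 0.97. CPM carries no spike-in scale, and the median log2 difference over the 4838 regions called in all 6 libraries was 0.91.

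Within its own list the site was among the tallest peaks whether or not dox was present. It ranked 2, 10 and 5 by maximum signal in no dox 1, 2 and 3 and 3, 2 and 3 in +dox 1, 2 and 3. Its maximum was 47.3, 58.5 and 30.6 times the list median without dox and 62.7, 64.4 and 156 times with dox. By its lowest percentile over the 6 lists it ranked 2 among the 4838 regions. The maxima of the 6 libraries lay within 100 bp of each other, closer than the median spread of 150 bp over those regions. The 300 bases around them, chr7:99360076-99360375 on the + strand of mm10, are shown because this site is the highest at the 10 loci. They hold 3 copies of CAGCTG, in capitals, at 99360146, 99360196 and 99360350.
Serpinh1 site: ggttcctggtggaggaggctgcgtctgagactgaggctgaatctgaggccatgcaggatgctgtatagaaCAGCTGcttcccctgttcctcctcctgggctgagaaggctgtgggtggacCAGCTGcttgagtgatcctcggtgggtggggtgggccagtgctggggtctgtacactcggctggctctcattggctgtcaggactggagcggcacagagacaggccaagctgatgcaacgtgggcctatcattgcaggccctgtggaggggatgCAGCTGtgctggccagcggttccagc

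The other regions at Serpinh1 were much lower. The region over the gene start had percentiles of 57.7, 86.0 and 55.3 without dox and 55.8, 72.7 and 81.1 with dox, where a percentile is the share of a library's list at or below the maximum signal of that peak. Its means of 66.3 ± 17.1 and 69.9 ± 12.9 (SD, n = 3 each) differed by less than the spread between libraries. The region with its maximum 3487 bp upstream held 50, 72 and 22 alignments at the maximum without dox, and 14, 86 and 172 with dox. Its percentile was 23.0 in +dox 1 and between 70.0 and 97.5 in the other 5 libraries.

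Col1a1 encodes the main chain of type I collagen, the chief fibrillar collagen. It had 2, 3 and 3 peaks without dox and 3, 4 and 8 with dox. Its highest region was again upstream, on chromosome 11 from 94927301 to 94929950, intergenic, with the maximum 7248 bp before the start. Percentiles there were 88.2, 90.9 and 73.4 without dox and 96.3, 92.0 and 94.9 with dox, so each +dox library lay above each no dox library. Means of 84.1 ± 9.41 and 94.4 ± 2.20 (SD, n = 3 each) differed by 10.3 points (exact two-sided permutation p = 0.1, the smallest that 3 against 3 allows, adjusted p = 0.421 over the 4838 regions). It was the 1 region of the 14 called in all 6 libraries at these loci whose groups did not overlap with dox higher, and 0 of 14 did so with dox lower. Over all 4838 such regions 23.7% were higher in each +dox library and 0.0413% lower. The groups still did not overlap with ranks of total signal, but the difference fell to 4.88 points without no dox 3, to 4.61 points without both libraries numbered 3 and to 6.02 points in lists of equal length, where the groups overlapped.

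In CPM the same Col1a1 region overlapped between groups, with 15.4, 16.7 and 5.14 CPM without dox and 65.6, 30.6 and 13.2 CPM with dox. Here too the +dox value was the higher within each replicate number. A lower region 3023 bp upstream, with CAGCTG near its maximum, was called in +dox 2 and +dox 3 at percentiles of 31.9 and 70.8 and in 0 no dox libraries. The region over the start was called in 5 libraries, all but no dox 1, with 14 to 36 alignments at the maximum. The fourth consensus region of this window lay past the 3′ end of the gene, nearer to the start of another coding gene, Hils1. The window also overlaps Sgca, a sarcoglycan gene of muscle.

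Col1a2, Col3a1 and Col5a1 encode further fibrillar chains, those of type I, type III and type V collagen. Col1a2 had 1, 1 and 0 peaks without dox and 0, 0 and 2 with dox, and Col3a1 had 0, 0 and 0 against 0, 0 and 1. Neither gene had a region called in all 6 libraries. At the Col1a2 start a region was called in no dox 1, no dox 2 and +dox 3, with 10, 14 and 10 alignments at the maximum. The highest region of Col1a2, in the gene body 26212 bp past the start, was called in +dox 3 alone at percentile 89.7 with 60 alignments. The single peak of Col3a1, over its start, was also in +dox 3 alone and held 14 alignments.

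Col5a1 had 2, 6 and 9 peaks without dox and 3, 2 and 20 with dox. Its mean was 5.67 peaks without dox and 8.33 with dox, and when +dox 3 was left out the difference turned to -3.17. A region over its start, on chromosome 2 from 27884951 to 27889900, was called in all 6 libraries with its maximum in an intron 2901 bp past the start. Percentiles were 67.5, 86.0 and 78.4 without dox and 76.8, 82.2 and 95.8 with dox, which overlapped (exact two-sided permutation p = 0.5). Maximum signals of 7.45, 12.2 and 6.00 CPM without dox and 18.1, 17.2 and 15.2 CPM with dox did not overlap.

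**Figure D2:**
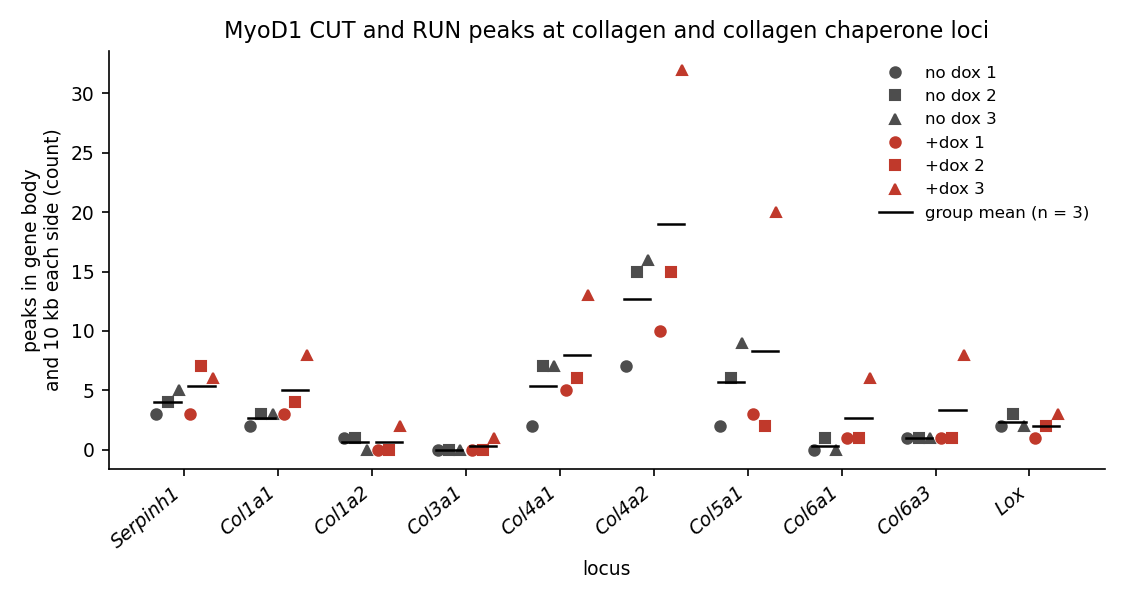
Number of peaks at each of the 10 loci (gene body and 10 kb each side) in each library. Grey symbols are no dox and red symbols +dox, with circles, squares and triangles for replicates 1, 2 and 3 and lines for group means (n = 3). The red triangle of +dox 3 is highest or joint highest at 9 of the loci, with 32 peaks at Col4a2 and 20 at Col5a1.

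Col4a1 and Col4a2 encode the paired chains of type IV collagen, the network collagen of basement membranes. The genes lie head to head on chromosome 8, Col4a1 from 11198423 to 11312826 on the - strand and Col4a2 from 11312805 to 11449287 on the + strand, and share their start region. Col4a1 had 2, 7 and 7 peaks without dox and 5, 6 and 13 with dox. Col4a2 had 7, 15 and 16 peaks without dox and 10, 15 and 32 with dox, the most of the 10 loci in each library. Both overlapped between groups, and without +dox 3 the Col4a2 difference was -0.167.

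**Figure D3:**
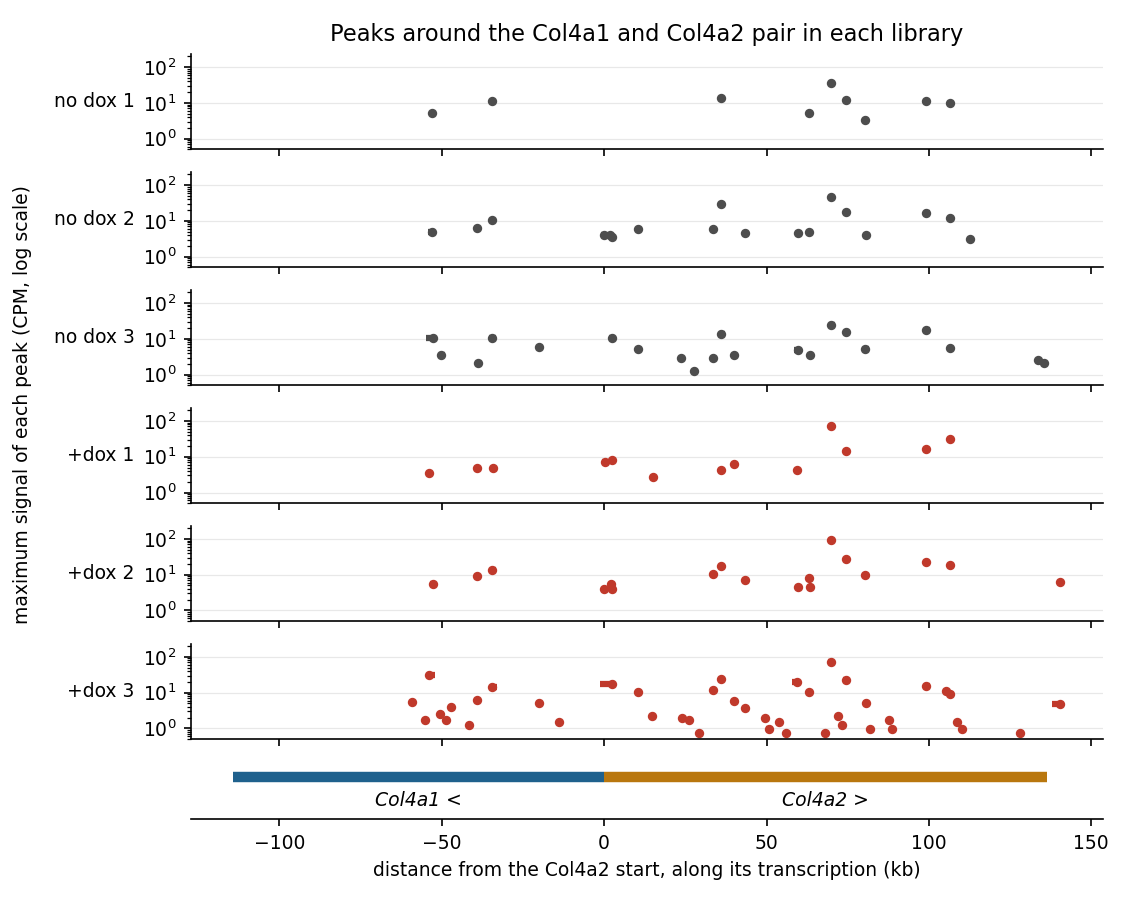
Peaks around the head-to-head genes Col4a1 and Col4a2 in each library, by distance from the Col4a2 start along its transcription (kb). Dots mark the maximum of each peak, horizontal lines its span, and heights are maximum signals in CPM on a log axis. The intronic peak near +69.8 kb of Col4a2 is the tallest in each library, at 25.1 to 46.5 CPM without dox and 71.1 to 90.6 CPM with dox.

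Col4a2 had 5 regions called in all 6 libraries, a number reached by 33 protein-coding genes, and Col4a1 had 2. The tallest lay in a Col4a2 intron on chromosome 8 from 11381601 to 11383750, with its maximum 69771 bp past the start. Maximum signals there were 34.9, 46.5 and 25.1 CPM without dox and 71.1, 90.6 and 71.2 CPM with dox, and the groups did not overlap. The means were 35.5 ± 10.7 and 77.7 ± 11.2 CPM (SD, n = 3 each), a log2 difference of 1.17 against 0.91 for the median region. Without no dox 3 the log2 difference was 0.94, and without both libraries numbered 3 it was 0.99. The median of 0.91 was taken with all 6 libraries. The region kept its place in the lists, with percentiles of 97.1, 98.3 and 98.2 without dox and 96.8, 98.7 and 99.8 with dox (means 97.9 ± 0.65 and 98.4 ± 1.52, exact two-sided permutation p = 0.5).

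In CPM this region and that of Col5a1 were the 2 of 14 with higher maxima in each +dox library, and 0 of 14 were lower in each. The shares over all 4838 regions were 27.5% and 0.0%. Counts of separated regions in other settings are given without such shares. The count in CPM was chosen after seeing the data. The windows around the maxima of the highest regions of Col4a2, Col5a1, Col1a1, Col1a2, Col4a1, Col6a1 and Col6a3 are shown to set places with and without CAGCTG side by side. They lie at chr8:11382501-11382650, chr2:27889251-27889400, chr11:94928901-94929050, chr6:4530951-4531100, chr8:11253701-11253850, chr10:76714401-76714550 and chr1:90834801-90834950, all on the + strand of mm10, with CAGCTG in capitals. Col4a2 holds 2 copies, Col5a1 and Col1a2 hold 1 each, and the other 4 windows hold 0. Within 100 bp of the maximum, 4 of the highest regions of the 10 loci held CAGCTG and 10 held an E-box of any form (CANNTG). Highest here is by mean percentile over the libraries that called a region. At Col4a1 and Col6a1 another region stood higher in +dox 3. Of these highest regions 5 were called in +dox 3 alone, those of Col1a2, Col3a1, Col4a1, Col6a1 and Col6a3, and the others were found in both conditions. Over all regions of +dox 3 alone such windows held CAGCTG in 28.0% and CANNTG in 77.1%. Over all regions found in both conditions the shares were 42.9% and 74.0%. The windows of Col3a1, which overlaps a UTR, and Lox are not printed.
Col4a2 intron: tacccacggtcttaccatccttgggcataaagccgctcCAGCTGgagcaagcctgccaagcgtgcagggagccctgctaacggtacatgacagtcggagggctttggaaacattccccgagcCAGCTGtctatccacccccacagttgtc
Col5a1 intron: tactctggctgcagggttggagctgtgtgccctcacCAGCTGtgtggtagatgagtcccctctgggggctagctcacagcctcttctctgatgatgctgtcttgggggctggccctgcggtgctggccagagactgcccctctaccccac
Col1a1 upstream: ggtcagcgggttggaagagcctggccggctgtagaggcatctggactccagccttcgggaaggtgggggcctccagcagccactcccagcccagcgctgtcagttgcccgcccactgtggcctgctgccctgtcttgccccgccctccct
Col1a2 gene body: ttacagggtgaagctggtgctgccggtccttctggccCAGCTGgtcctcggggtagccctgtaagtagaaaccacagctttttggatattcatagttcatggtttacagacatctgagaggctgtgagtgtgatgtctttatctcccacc
Col4a1 intron: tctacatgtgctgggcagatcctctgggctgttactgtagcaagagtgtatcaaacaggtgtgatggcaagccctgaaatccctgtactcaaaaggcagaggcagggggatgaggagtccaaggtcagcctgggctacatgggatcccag
Col6a1 intron: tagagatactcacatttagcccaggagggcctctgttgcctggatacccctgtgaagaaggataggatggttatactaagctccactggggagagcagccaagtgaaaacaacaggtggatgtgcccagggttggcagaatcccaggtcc
Col6a3 intron: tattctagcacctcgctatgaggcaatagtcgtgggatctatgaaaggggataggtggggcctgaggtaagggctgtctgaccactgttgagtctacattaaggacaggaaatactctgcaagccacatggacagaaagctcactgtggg

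At 5 of the 7 type IV regions called in all 6 libraries the mean percentile was lower with dox, and +dox 1 was the lowest library at each of the 5. In the Col4a2 intron 35971 bp past the start, percentiles were 85.4, 96.2 and 93.9 without dox and 16.0, 83.3 and 97.8 with dox. In the Col4a1 intron 34550 bp past the start they were 82.2, 83.5 and 90.5 without dox and 23.0, 75.4 and 95.6 with dox. These were the largest differences of the 5, and in both +dox 1 stood far below the other 5 libraries, with 12 and 14 alignments at the maximum. The Col4a2 region 106621 bp past the start went the other way, with means of 79.7 ± 4.92 without dox and 87.9 ± 3.75 with dox (exact two-sided permutation p = 0.2), and no dox 2 lay above +dox 2. The region over the shared start was called in 5 libraries, all but no dox 1. By mean percentile over the libraries that called it, the highest region of Col4a1 was in an intron 59050 bp past the start. It was called in +dox 3 alone at percentile 85.6 with 44 alignments. In that library the Col4a1 intron region 54000 bp past the start stood higher, at 98.6.

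Col6a1 and Col6a3 encode chains of type VI collagen. Col6a1 had 0, 1 and 0 peaks without dox and 1, 1 and 6 with dox, and Col6a3 had 1, 1 and 1 against 1, 1 and 8. Each had 1 consensus region. That of Col6a1 lay 6858 bp upstream, was called in 3 of 3 +dox libraries at percentiles of 38.1, 37.4 and 81.1 and in no dox 2 at 29.1, and held CAGCTG near its maximum. That of Col6a3 lay over a coding exon 68195 bp past the start and was called in all but no dox 3, with 8 to 24 alignments at the maximum. Ranked by mean percentile over the libraries that called them, the highest regions lay in introns. They were 11692 bp past the start of Col6a1 and 9095 bp past that of Col6a3. Both were called in +dox 3 alone, at percentiles of 64.6 and 83.1 with 18 and 38 alignments. In +dox 3 itself the Col6a1 region 6858 bp upstream stood higher, at 81.1. All other regions of Col6a1, and 6 of the 8 regions of Col6a3, were called in +dox 3 alone. Over the Col6a3 start there was a peak in 0 libraries.

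Lox encodes lysyl oxidase, the enzyme that cross-links collagen and elastin outside the cell. It had 2, 3 and 2 peaks without dox and 1, 2 and 3 with dox. The region at its start was called in all 6 libraries but low in most, at percentiles of 21.4, 44.9 and 14.9 without dox and 9.05, 6.48 and 90.8 with dox. The region 5759 bp upstream was called in all but +dox 1, at 57.7, 79.1 and 97.2 without dox and 63.2 and 98.5 in +dox 2 and 3. There the libraries numbered 3 were the highest of each group, with 96 and 234 alignments.

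Over the 10 loci together there were 20, 37 and 41 peaks in no dox 1, 2 and 3 and 25, 35 and 97 in +dox 1, 2 and 3. The difference of 19.7 peaks between means was smaller than the SD of the +dox group (39.0). Without +dox 3 it was -2.67, and without both libraries numbered 3 it was 1.50. As a share of the list the 10 loci took 0.213%, 0.267% and 0.306% of peaks without dox and 0.199%, 0.264% and 0.181% with dox. At 0 of the 10 loci did the groups separate in either direction, while 4.29% of the 15740 protein-coding genes with a peak were higher in each +dox library and 0.0127% lower. The exact two-sided permutation p ran from 0.3 to 1.0 over the 10 loci and the adjusted p was 1.0 at each.

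Of the 104 regions, 34 were consensus regions, called in at least 2 of 3 libraries of a condition. Of these, 25 (73.5%) were found in both conditions, against 57.4% of 14755 consensus regions in all. With dox alone there were 6 (17.6%), against 36.1% in all, and without dox alone there were 3, against 6.51%. Regions present in every +dox library and absent from every no dox library numbered 0, against 4.3% in all. Most consensus regions at these loci were thus called without dox too. Without +dox 3 there were 2 regions with dox alone and 9 without dox alone, and without no dox 2 there were 14 and 0. A group that lost a library had to call a region in each remaining library. That stricter rule sets the direction of these shifts, so they cannot show that the split depends on a given library.

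Consensus regions were found at 9 of the 10 loci, all but Col3a1, and regions called in all 6 libraries at 6, while 49.7% and 21.7% of protein-coding genes had them. These shares were not adjusted for window length, which ran from 27.9 kb at Serpinh1 to 173 kb at Col5a1. Col4a1 and Col4a2 also share consensus regions. Per 100 kb of window, consensus regions numbered 14.4 at Serpinh1, 10.9 at Col1a1 and 9.59 at Col4a2, against 0.541 over the genome with its gene-free stretches. At Col1a2, Col5a1 and Col6a3 the numbers were 1.76, 1.73 and 1.02.

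**Figure D4:**
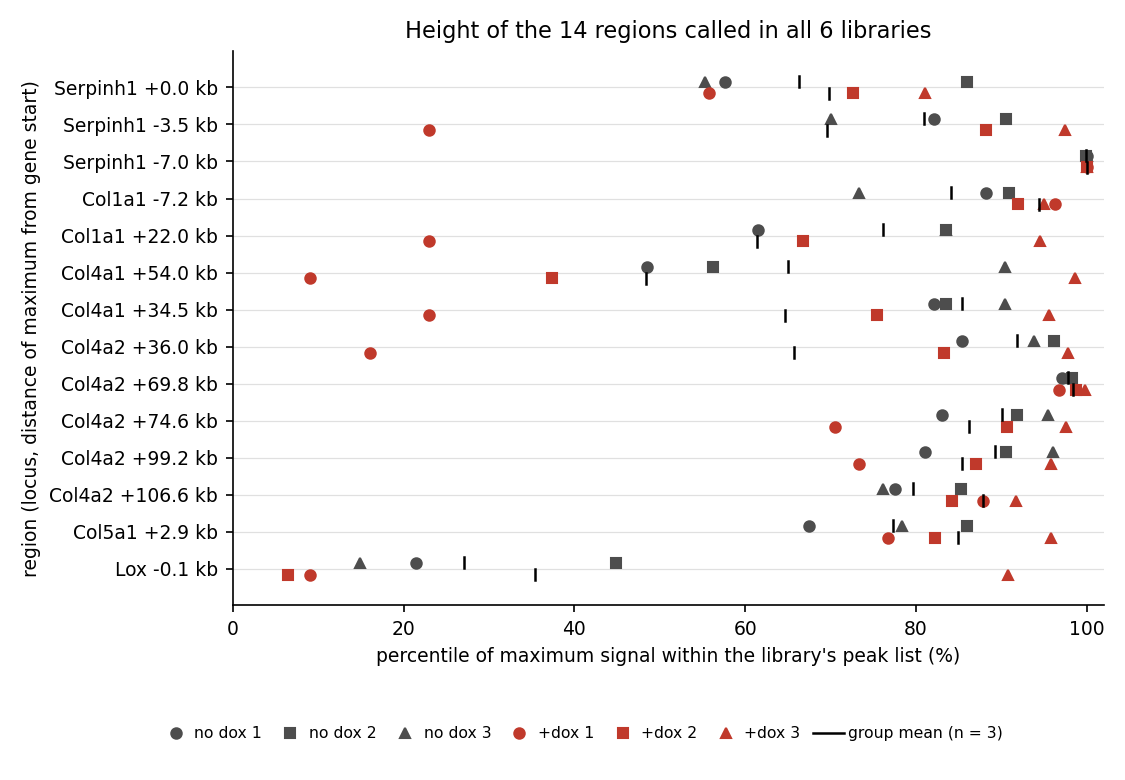
Percentile of maximum signal within the list of its library for each of the 14 regions called in all 6 libraries, named by locus and distance of the maximum from the gene start. Grey symbols are no dox, red symbols +dox, and black ticks group means (n = 3). The Serpinh1 site at -7.0 kb lies at 99.9 or above in each list, and the circle of +dox 1 is the lowest symbol at 8 of the 14 regions.

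The 14 regions called in all 6 libraries showed no common direction. Mean percentiles were higher with dox at 7 and lower at 7, differences ran from -26.1 to 10.3 points, and their median was -1.90. Of the 14 regions, 7 lie at the neighbouring genes Col4a1 and Col4a2, among them 5 of the 7 with lower means, so the 14 are not separate loci. Over all 4838 regions the median difference was 6.40 points and 76.1% were above 0. The median over the 14 regions in each library was 81.6, 88.3 and 87.0 without dox and 63.1, 83.7 and 95.8 with dox. The difference between the group means of this median was -4.73 points. It was 6.67 points without +dox 1, over the 17 regions called in each of the other 5 libraries. Without +dox 3 it was -12.2 points over 14 regions. Without both libraries numbered 3 it was -11.0 points over 16 regions. In CPM the mean was higher with dox at 12 of 14, with a median log2 difference of 0.48, below the 0.91 of all regions.

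**Figure D5:**
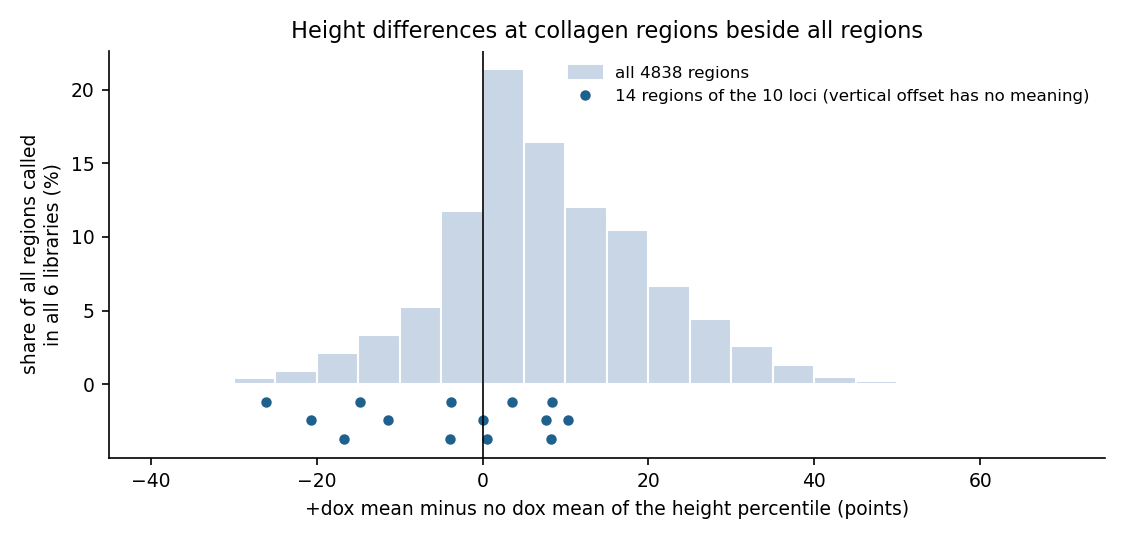
Difference in mean percentile, +dox minus no dox, for the 4838 regions called in all 6 libraries (bars, share of regions in bins of 5 points) and for the 14 regions at the 10 loci (dots under the axis). The dots lie between -26.1 and 10.3 points, and most of the bars lie above 0.

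The preferred E-box, CAGCTG, lay within 100 bp of the maximum in 5 of the 14 regions called in all 6 libraries (35.7%), against 48.3% of all such regions. It did so in 7 of 25 regions found in both conditions (28.0%, 95% Wilson interval 14.3 to 47.6%), against 42.9%. Of the 6 regions with dox alone 4 held it, against 31.4%. The AP-1 site TGANTCA lay in such windows in 4 of the 25 regions and 2 of the 6, against 13.3% and 12.3% of all regions of those kinds. In whole regions with 100 bp each side CAGCTG was found in 12 of 14 (85.7%), against 85.4%. Both motifs read the same on either strand, and a match is not a measured contact. RefSeq promoter windows of 250 bases before and 50 after the start, on GRCm38, were found for 8 of the 10 genes, and 0 of the 8 held CAGCTG, against 16.3% of 32851 windows.

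A wider list of collagen genes was counted in the same way, with 94 of its 95 names in the annotation. A region called in all 6 libraries was found at 27 of them (28.7%), against 21.7% of protein-coding genes, again without adjustment for window length. By role these were 9 of 36 other collagen chains, 3 of 17 genes of procollagen folding and modification, 1 of 4 of export, 3 of 8 of propeptide removal, 2 of 5 of cross-linking, 2 of 9 fibril-associated proteins, 2 of 8 of breakdown and 5 of 7 receptors. The receptors were Ddr1, Ddr2, Itga10, Itga11 and Itgb1. The tallest were in an intron of Col26a1, with a mean percentile of 98.3, upstream of Timp2, an inhibitor of matrix metalloproteinases, at 98.0, and upstream of Adamts14, a procollagen protease, at 97.1. Next were the collagen receptor gene Ddr1 at 93.8 and P3h4, a partner of collagen hydroxylases, at 93.2.

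Peak counts did not overlap between groups at 1 of the 94 genes, Col16a1, with 3, 3 and 3 peaks without dox and 4, 4 and 9 with dox, and 0 were lower. Col16a1, a fibril-associated collagen, also held the single region of the list that every +dox library and 0 no dox libraries called. It lay in an intron on chromosome 4 from 130043901 to 130044700, at percentiles of 60.8, 2.25 and 31.8 in +dox 1, 2 and 3. Over all genes with a peak the share with such separated counts was 4.29%, as given above. Some of the 94 genes, such as Col4a4 and Ctsk, had no peak in any library, so the bases differ.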

How the data were processed

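Per the study's methods, reads were processed with the nf-core/cutandrun pipeline on mm10 with blacklisted regions removed, and SEACR in its relaxed setting called peaks separately for every library. No control library is named for peak calling. Per the labels, deepTools and SEACR were used. The deposited values are signal: coverage scaled by the authors to CPM, given for each peak as the total over its bases and as the maximum. Depth was read from the maxima, which were whole multiples of the worth of 1 alignment in 100% of peaks (tolerance 0.05 of a step). No peak list was identical to another, and 0 peaks ended past a chromosome end of GRCm38, the assembly behind mm10.

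The genes, the wider list and the regions named were chosen with earlier results of these data known. The rule named each gene with its peak counts, the region with the highest mean percentile at each locus, the regions that separated the groups, and, of the wider list, the 5 tallest. Where a library had several peaks in a region the highest was used. Tests of group means were two-sided exact permutation tests. With 20 ways to assign 6 libraries, p cannot go below 0.1 or reach the threshold of 0.05, and Benjamini-Hochberg adjustment covered all genes with a peak or all regions called in 6 libraries. Methods were tested on simulated lists. Alternatives left out each library, equalised list length or floor, and changed the window, the rank, the merging, the consensus rule, the motif and the pairing. Python 3.11.15, NumPy 2.4.6, pandas 2.3.3 and pysam 0.24.0 were used.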

Additional observations from a re-analysis of the deposited data

How the results depend on the processing

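Of 236 recomputed values, 199 were counted as unchanged. Peaks at single loci and the Col1a1 region counted so when their direction did not reverse. Other differences did when they moved by less than 1 SD between libraries, and counts when they stayed within 1.5 times. A main difference of 0, as at Col1a2, cannot reverse, and one that fell to 0 was also counted as unchanged. So were the values with a replicate block, whose means cannot differ from the main ones. The direction of peak counts turned at single loci. With lists of equal length (the strongest peaks of each list, as many as in the shortest) the difference in peaks, dox minus no dox, became -1.0 at Serpinh1, -0.667 at Col4a1, -1.0 at Col4a2, -1.33 at Col5a1 and -0.333 at Col6a3. With 1 library left out it ran from -0.167 to 10.8 at Col4a2 and from -3.17 to 5.83 at Col5a1, both lowest without +dox replicate 3, and from -0.833 to 0.167 at Lox, highest without +dox replicate 1. At Col5a1 it was -0.667 with one floor of total signal and -1.50 without both libraries numbered 3, a setting chosen after seeing the data. At Lox it became 0.333 with the gene body alone or with 50 kb each side. The causes were not tested.

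Over all 10 loci the difference ran from -2.67 to 33.3 peaks when 1 library was left out and was -3.67 with lists of equal length, and that of the median percentile, over the regions called in each remaining library, ran from -12.2 to 6.67 points. With ranks among the regions called in all libraries alone, a different scale, the difference of the median percentile was -16.2 points. Leaving out 1 library at a time gave 2 to 14 regions with dox alone, 0 to 9 without dox alone and 17 to 24 in both. The group that lost a library then needed each remaining one, a stricter rule that moves these counts by itself. Of the 14 to 18 regions called in all remaining libraries, 1 to 4 were higher in each +dox library and 0 to 4 lower. Those higher numbered 0 of 8 with lists of equal length and 0 of 14 with ranks among regions called in all libraries. With total signal or in log2 CPM they numbered 2 of 14. Without both libraries numbered 3, 2 of 16 were higher and 4 lower, but smaller groups separate more easily. Regions without dox alone numbered 5 with lists of equal length or windows around the maximum. Regions in both conditions numbered 14 with 3 of 3 libraries and 16 without both libraries numbered 3, where each remaining library is needed. CAGCTG was found in 80.0% of the 25 regions in both conditions when whole regions were searched, and any CANNTG near the maximum in 88.0%, since these settings search more bases or more sequences.

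Regions called in all 6 libraries numbered 10 with gene bodies alone and 26 with 50 kb each side, against 14. Deviations of same-numbered libraries correlated at 0.367, -0.00972 and 0.493 over the regions called in all 6 libraries. Numbers 1 and 3 exceeded all unlike pairings and 2 did not. The main tests took no pairs. With a replicate block the differences of 19.7 peaks and -4.73 percentile points cannot change and check nothing. The exact two-sided sign-flip p at the Col1a1 upstream region was 0.25, the smallest that 3 pairs allow. Depth limits the low regions: those of +dox 3 alone held a median of 10 alignments, and a list gives no value where no peak was called. Intervals cover counting error only.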
